A study of Rattus norvegicus with 3 samples.

Results

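The 10 genes described here are transcription factors that act in the fate choice or the differentiation of photoreceptors. These are Otx2, Rorb, Prdm1, Neurod1, Crx, Mef2d, Nrl, Nr2e3, Rxrg and Thrb. They were chosen by name, and all 10 were found among the 18425 genes of the deposited table. Each had a mean of at least 464 reads over the libraries, so no member was lost to a filter on low counts. Retinas came from wild-type Sprague-Dawley rat pups that received 1 µl into the vitreous at P1 and were taken at P4. The injection was citrate buffer at an acid pH in the first group, saline in the second, and 10 µg of streptozotocin (STZ, a DNA-alkylating nitrosourea carried in citrate buffer) in the third. Each group was 1 library, sequenced to 21992702 (buffer), 21977843 (saline) and 22031249 (STZ) assigned reads. How many pups or retinas went into a library is not given in the sources used here. In the study's functional and morphological experiments, STZ went into the right eye and buffer into the left eye of each pup. Whether the buffer and STZ libraries likewise share pups, with saline from others, is not given in the sources used here, so the controls may not be alike. The spread between retinas is unknown, no difference below has a replicate check, and the effect of treatment cannot be told apart from other differences between the libraries.

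Rods and cones descend from progenitors that leave the cell cycle, and in the rat most rods are born around birth. Otx2 commits postmitotic precursors to the photoreceptor lineage and switches on Crx, which drives photoreceptor genes in both rods and cones. Rorb acts early and is needed for Nrl, Prdm1 holds Otx2-positive precursors back from the bipolar fate, and Neurod1 promotes photoreceptor differentiation and survival. Nrl then imposes the rod fate and induces Nr2e3, which represses cone genes, while Thrb and Rxrg are nuclear receptors linked to cones and their opsin pattern. Mef2d works with Crx on photoreceptor genes.

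The 10 genes lay on both sides of the controls in the STZ library. Rorb, Prdm1, Otx2 and Neurod1 were lower than in buffer and lower than in saline. Nr2e3, Nrl, Crx, Mef2d, Rxrg and Thrb were higher than in both. The largest differences were those of Nr2e3, with folds of 1.41 against buffer and 1.57 against saline, and of Rorb, with 0.735 and 0.694. The fold is (FPKM + 1)/(FPKM + 1), where FPKM is a read count scaled by transcript length and library size. The study called a gene changed at log2 folds above 0.62 or below -0.62, the lower of which is a fold of 0.65. Against buffer 0 of the 10 genes passed a threshold, where 2.25% of all genes lay above the upper and 1.04% below the lower one. Against saline 1 passed, Nr2e3, where 2.04% of all genes lay above and 1.75% below. Among the 8933 genes with a mean of at least 400 reads, which compare better with the members in depth, 0.739% lay above and 0.593% below against buffer, and 0.873% and 1.1% against saline. In bulk retina, a change in the number of cells of a type and a change in RNA per cell cannot be told apart.

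**Figure D1:**
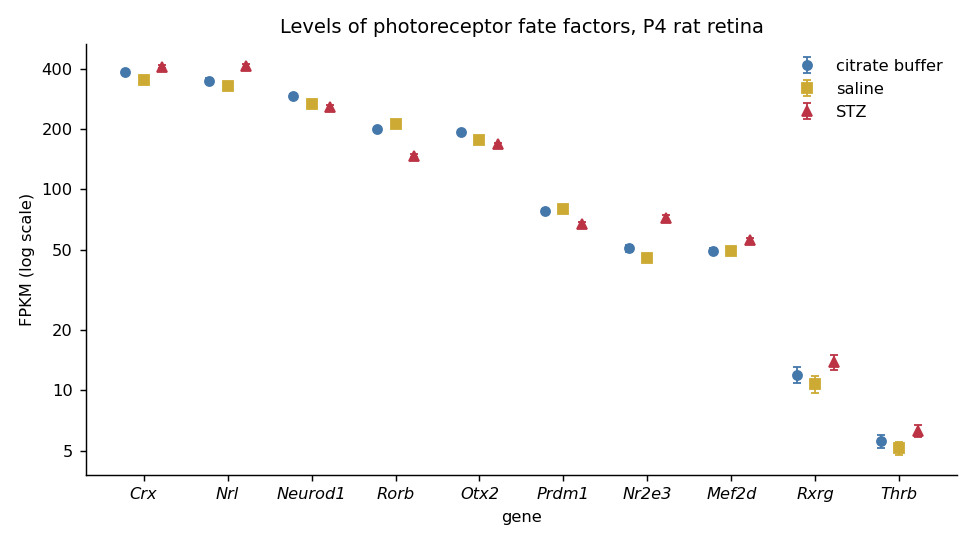
Level of each of the 10 genes in FPKM on a log scale, ordered by mean level, with 1 point per library (circle, citrate buffer; square, saline; triangle, STZ) and bars for the 95% counting interval, many of them smaller than the point. The STZ triangle is the highest of 3 points for Crx, Nrl, Nr2e3, Mef2d, Rxrg and Thrb and the lowest for the other 4 genes.

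Levels spanned a wide range. In the buffer library Crx was highest with 384 FPKM, followed by Nrl with 348, Neurod1 with 292, Rorb with 201 and Otx2 with 192. Prdm1 had 78.3, Nr2e3 50.9, Mef2d 49.5, Rxrg 11.9 and Thrb 5.58. Crx thus ranked 165 and Nrl 187 among all 18425 genes by FPKM in buffer, whereas Thrb ranked 9949. The order was much the same in saline, where Mef2d and Nr2e3 changed places. In STZ, Nrl with 414 FPKM stood beside Crx with 409, Otx2 passed Rorb, and Nr2e3 passed Prdm1. The 95% counting intervals of neighbours in the order overlapped for Nr2e3 and Mef2d in buffer and for Nrl and Crx in STZ, and for no other neighbours. Summed over the 10 genes, the level was 1613 FPKM in buffer, 1522 in saline and 1611 in STZ, so STZ and buffer were nearly equal on this scale. By reads, to which long transcripts such as Rorb add more, buffer had 89234, saline 86278 and STZ 82536 in all, or 0.406%, 0.393% and 0.375% of all reads, and STZ was lowest.

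Each count was also compared between libraries as a share of the library total, with an exact Clopper-Pearson 95% interval. The reads carry no molecular identifiers and are not independent molecules, and the intervals cover counting error alone. They excluded 1 for all 10 genes in STZ against buffer (6 higher, 4 lower) and for the same 10, in the same directions, in STZ against saline. At these depths that is common. Of the 8933 genes with a mean of at least 400 reads, 29.2% were higher and 25.2% lower than in buffer by this measure, 31.5% and 29.6% against saline, and 23.1% and 20.3% against each of both controls. The median log2 fold of the 10 genes was 0.12 against buffer and 0.20 against saline, beside medians of 0.02 and 0 over all genes, and it averages members of opposite direction. Both comparisons use the same STZ library and are not independent.

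**Figure D2:**
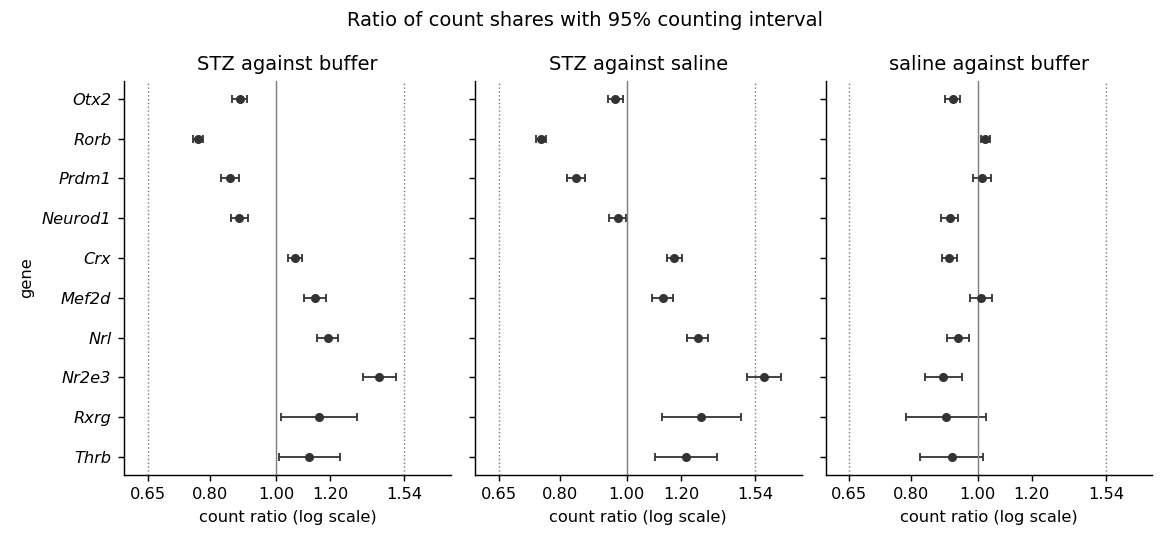
Ratio of a gene's share of reads between 2 libraries (log scale) for the 10 genes in the 3 comparisons, with bars for the exact 95% counting interval, a solid line at 1 and dotted lines at the 2 thresholds. Otx2, Rorb, Prdm1 and Neurod1 lie left of 1 and the other 6 genes right of 1 in both STZ panels, and Nr2e3 is the single point beyond a dotted line.

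Among the 4 lower genes, Rorb, an orphan nuclear receptor, had the most reads of all members. It had 29271 reads in buffer, 30027 in saline and 22568 in STZ, and its FPKM was 201, 213 and 147. Both controls lay close together and well above STZ. Its count ratio was 0.77 to buffer (0.756 to 0.783, the 95% interval) and 0.75 against saline (0.737 to 0.763). Of the 8933 genes with at least 400 reads on average, 2.15% had a lower fold than Rorb against buffer and 1.91% against saline. An annotated long noncoding RNA overlaps Rorb, and counting by strand is not stated, so its reads cannot be separated from those of Rorb.

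Prdm1, a zinc finger repressor also called Blimp1, had 8481 reads in buffer, 8614 in saline and 7282 in STZ. Its controls could not be distinguished by counting, at a saline to buffer ratio of 1.02 (0.986 to 1.05). STZ was lower than either, with ratios of 0.857 against buffer (0.831 to 0.884) and 0.843 against saline (0.817 to 0.87).

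Otx2, a homeodomain factor, had 13357 reads in buffer, 12279 in saline and 11845 in STZ after rounding of its fractional counts. Neurod1, a basic helix-loop-helix factor, had 10204, 9291 and 9031. In both genes saline lay nearer to STZ than to buffer. The ratio of Otx2 was 0.885 against buffer (0.864 to 0.907) but 0.962 against saline (0.938 to 0.987), and that of Neurod1 was 0.883 (0.859 to 0.909) and 0.97 (0.942 to 0.998). The saline to buffer ratios, 0.92 for Otx2 and 0.911 for Neurod1, were thus further from 1 than the STZ to saline ratios.

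Crx, the homeodomain factor common to rods and cones, had 12972 reads in buffer, 11780 in saline and 13849 in STZ, or 384, 349 and 409 FPKM. STZ was highest and saline lowest. The ratio was 1.07 against buffer (1.04 to 1.09) and 1.17 against saline (1.14 to 1.2), and saline against buffer was 0.909 (0.886 to 0.932), so the controls differed by more than STZ and buffer did. Mef2d, a MADS-box factor, had 5687, 5745 and 6495 reads. Its controls agreed within counting error at a ratio of 1.01 (0.974 to 1.05), and STZ was higher by 1.14 against buffer (1.1 to 1.18) and 1.13 against saline (1.09 to 1.17).

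Of the 10 genes, Nr2e3 showed the largest excess in STZ over both controls. This orphan nuclear receptor of rods had 2203 reads in buffer, 1963 in saline and 3121 in STZ, which is 50.9, 45.4 and 71.9 FPKM. STZ stood above both controls, and the gap to buffer was several times the gap between the controls. STZ exceeded buffer by a count ratio of 1.41 (1.34 to 1.49) and saline by 1.59 (1.5 to 1.68), an interval that reaches below the upper threshold. Of the 8933 genes with at least 400 reads on average, 1.34% had a higher fold than Nr2e3 against buffer and 0.716% against saline. Nrl, a basic leucine zipper factor, had 5877 reads in buffer, 5504 in saline and 7003 in STZ, or 348, 327 and 414 FPKM. Its ratio was 1.19 against buffer (1.15 to 1.23) and 1.27 against saline (1.22 to 1.31). Within a library, the FPKM of Nr2e3 was 0.146 of that of Nrl in buffer, 0.139 in saline and 0.174 in STZ. Nrl had an FPKM 1.73 times that of Rorb in buffer and 2.81 times in STZ, and saline lay below buffer.

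Promoter windows are given for Rorb and Nr2e3, the members with the lowest and highest folds in STZ, and for Crx and Nrl, the members with the highest levels. The windows run from 250 bases before to 50 after the annotated start and are RefSeq sequences of GRCr8, printed 5′ to 3′ on the strand of the gene. They were matched by gene identifier, which found 9 of the 10 members, all but Otx2. Start sites used in retina may differ from the annotated ones. Capitals mark matches, on either strand, to 4 short motifs, namely TAATCC (bound by Crx and Otx2), TGCTGA (core of the Nrl response element), AGGTCA (core of nuclear receptor sites) and CAGATG (an E box).
Crx (chr1:85681803-85682102, minus strand): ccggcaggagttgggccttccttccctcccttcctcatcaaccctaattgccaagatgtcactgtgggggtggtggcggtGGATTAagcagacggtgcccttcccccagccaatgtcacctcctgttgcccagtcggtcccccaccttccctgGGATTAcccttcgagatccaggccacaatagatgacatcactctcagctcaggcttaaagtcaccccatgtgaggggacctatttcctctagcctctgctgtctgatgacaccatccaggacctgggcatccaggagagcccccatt
Nrl (chr15:32981393-32981692, minus strand): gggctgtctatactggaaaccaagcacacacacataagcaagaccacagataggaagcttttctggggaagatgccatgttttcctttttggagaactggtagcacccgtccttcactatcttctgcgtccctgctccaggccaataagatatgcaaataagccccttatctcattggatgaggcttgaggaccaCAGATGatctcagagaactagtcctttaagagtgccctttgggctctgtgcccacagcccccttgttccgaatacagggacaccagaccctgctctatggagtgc
Nr2e3 (chr8:69269032-69269331, minus strand): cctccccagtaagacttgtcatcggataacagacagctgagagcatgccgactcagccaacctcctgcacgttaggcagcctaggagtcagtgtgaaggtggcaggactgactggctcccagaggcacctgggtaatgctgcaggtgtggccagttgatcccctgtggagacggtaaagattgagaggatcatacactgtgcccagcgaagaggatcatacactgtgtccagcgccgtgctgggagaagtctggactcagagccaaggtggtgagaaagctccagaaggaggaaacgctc
Rorb (chr1:225970924-225971223, minus strand): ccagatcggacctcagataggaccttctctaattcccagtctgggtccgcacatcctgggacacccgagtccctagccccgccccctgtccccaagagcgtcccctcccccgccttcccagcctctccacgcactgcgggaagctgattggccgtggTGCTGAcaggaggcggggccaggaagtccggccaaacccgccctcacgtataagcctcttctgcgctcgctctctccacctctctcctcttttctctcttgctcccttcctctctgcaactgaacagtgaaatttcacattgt
Crx held 2 copies of the Crx and Otx2 motif, both read as GGATTA on the strand shown, with first bases at -170 and -97 from the start. The motif occurs in 7.17% of 33469 rat promoter windows of this length. The Rorb window held 1 TGCTGA (in 18.4% of windows) and the Nrl window 1 CAGATG (in 16.6%). The Nr2e3 window held none of the 4, and AGGTCA, found in 16.2% of windows, was in none of the 9. The motifs overlapped nowhere in these windows. Among the others, Thrb held TAATCC and TGCTGA once each, and Neurod1 and Mef2d held TGCTGA once each. A match is a string of letters and no evidence of binding.

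The 2 cone-associated receptors were the weakest members. Rxrg, a retinoid X receptor, had 455 reads in buffer, 409 in saline and 527 in STZ, after rounding of fractional counts. Thrb, a thyroid hormone receptor, had 727, 666 and 815. STZ was highest and saline lowest in both genes. The ratios to buffer were 1.16 for Rxrg (1.02 to 1.31) and 1.12 for Thrb (1.01 to 1.24), with intervals that came close to 1. The ratios to saline were 1.29 (1.13 to 1.47) and 1.22 (1.1 to 1.35). Between the controls, both intervals included 1, at 0.785 to 1.03 for Rxrg and 0.824 to 1.02 for Thrb. Long noncoding RNAs and pseudogenes are annotated inside Thrb. Nrl stood at 29.2 times the FPKM of Rxrg in buffer, 30.5 times in saline and 30.0 times in STZ. That pair thus kept nearly the same FPKM ratio, but this does not hold for every rod and cone factor. Relative to Thrb, the FPKM of Nrl was 66.1-fold with STZ, above the controls (62.4 for buffer, 63.7 for saline). Nr2e3, the other rod factor, had STZ count ratios of 1.41 to buffer and 1.59 to saline, larger than those of Rxrg and Thrb.

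**Figure D3:**
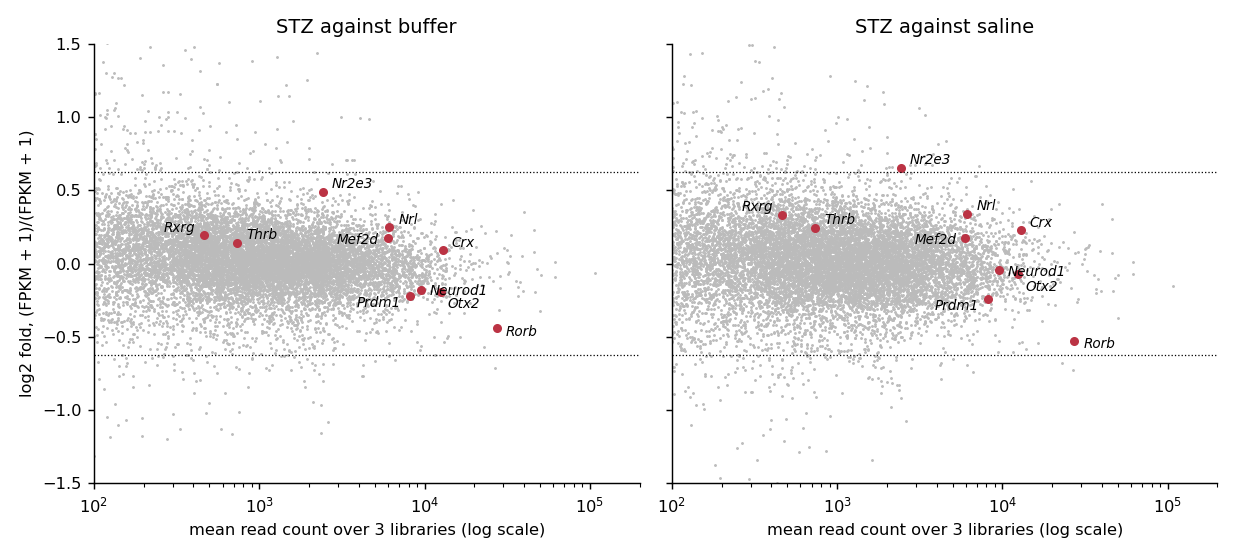
Log2 of the fold of STZ against buffer (left) and saline (right) plotted against the mean read count over the 3 libraries (log scale) for genes with a mean of at least 100 reads (grey), with the 10 fate factors in red and dotted lines at the 2 thresholds. Nr2e3 and Rorb lie at the upper and lower edge of the genes of like count, and 39 genes on the left and 43 on the right fall outside the drawn range.

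In saline against buffer, 0 of the 10 genes passed a threshold, where 1% of all genes lay above the upper and 0.429% below the lower one (0.235% and 0.123% of the genes with at least 400 reads on average). The folds ran from 0.894 for Nr2e3 to 1.06 for Rorb. By the counting interval 5 genes were lower in saline (Otx2, Neurod1, Crx, Nrl and Nr2e3), 1 was higher (Rorb), and 4 included 1. Among the 8933 genes with at least 400 reads on average, 16.6% were lower and 18.1% higher by this measure. The median log2 fold of the 10 genes was -0.11, beside 0.01 over all genes. Summed reads of pigment epithelium markers were also higher in the saline library, with 2254 over 13 markers against 1130 in buffer and 1204 in STZ. Of the 8 such markers with a mean of at least 10 reads, 4 lay above the upper threshold in saline against buffer and 0 below the lower, beside 1.01% and 0.443% of the 14885 genes with that mean. The 4 were Tyr, Tyrp1, Dct and Pmel. Pmel, a melanosome protein, had 252, 940 and 240 reads in the buffer, saline and STZ libraries. The rest of the 8 passed no threshold, with saline to buffer folds of 1.14 for Rdh5, 1.12 for Mitf, 1.01 for Rgr and 0.841 for Ttr. Against buffer, Dct was highest of the 8 in STZ at 1.22 and Ttr lowest at 0.954. Rpe65, which defines the mature epithelium, had 0, 2 and 2 reads, and a count of 0 allows up to 3. Which tissue the marker reads came from was not tested, nor was its part in the lower saline values.

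Rod genes, many of them known targets of Crx and Nrl, had larger folds in STZ than most of the factors. In the list of 14 rod genes, all measured with a mean of at least 10 reads, 4 passed the upper threshold against buffer and 5 against saline, and 0 passed the lower in either. The 4 that passed against both controls were Gngt1, Pde6a, Pde6b and Gnat1, which encode parts of the rod transducin and phosphodiesterase. Among the 14885 genes with that mean, 2.58% passed the upper threshold against buffer, 2.37% against saline and 1.63% against both. All 14 folds were over 1 against either control, where 56% and 52.1% of these genes were over 1. In saline against buffer 13 of the 14 were under 1, where 44.4% of these genes were under and 54.7% over 1. With STZ the median log2 fold was 0.54 relative to buffer and 0.58 relative to saline, beside 0.03 and 0.01 over the 14885 genes. Gngt1, the rod transducin gamma subunit, had 932 reads in buffer, 865 in saline and 2076 in STZ, folds of 2.22 and 2.37. Slc24a1, a rod exchanger, was lowest against buffer at 1.01 with 28, 13 and 37 reads.

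Of 17 genes shared by rods and cones, 7 passed the upper threshold against buffer and 6 against saline, and 0 passed the lower. Those that passed against both, 6 in all, included Pdc, Grk1, Guca1b, Rdh12 and Fscn2. Of the 14885 genes with a mean of at least 10 reads, 2.58% passed the upper threshold against buffer, 2.37% against saline and 1.63% against both. Pdc, the photoreceptor protein phosducin, had 2966, 2380 and 4861 reads and folds of 1.63 and 2.02. Fscn2, an actin bundling protein, had the highest fold against buffer at 2.24 from 64, 76 and 182 reads, and Crb1, an apical polarity gene, the lowest at 0.841. Their median on the log2 scale was 0.55 relative to buffer and 0.57 relative to saline.

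Cone genes differed less. Of 11, 10 had a mean of at least 10 reads. The upper threshold was passed by 1 against each control (Pde6h against buffer, Opn1sw against saline), the lower by 0, and 0 passed against both. Of the 14885 genes with that mean, 2.58% passed the upper threshold against buffer and 2.37% against saline. The lower was passed by 1.15% and 1.95%. Cone medians on the log2 scale were 0.26 relative to buffer and 0.30 relative to saline. Opn1sw, the short-wavelength opsin repressed by Nr2e3 in rods, had 1242, 1067 and 1687 reads and folds of 1.35 and 1.56. Pde6h was highest against buffer at 1.71 with 68, 87 and 114 reads. Arr3, cone arrestin, was lowest at 0.745, but with 24, 27 and 13 reads its ratio to buffer had an interval of 0.253 to 1.11. Opn1mw had 0, 0 and 1 read. Bipolar genes, the alternative fate that Prdm1 holds back, were measured at a mean of at least 10 reads for 11 of 13 genes, with log2 medians of 0.06 relative to buffer and 0.12 relative to saline. Pcp2 alone passed the upper threshold against buffer, at 1.56 with fractional counts, and Lhx4 was lowest at 0.772. Trpm1, which pigmented cells also express, passed the lower threshold against saline with 13 reads in buffer, 213 in saline and 19 in STZ. No bipolar gene passed against both controls.

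**Figure D4:**
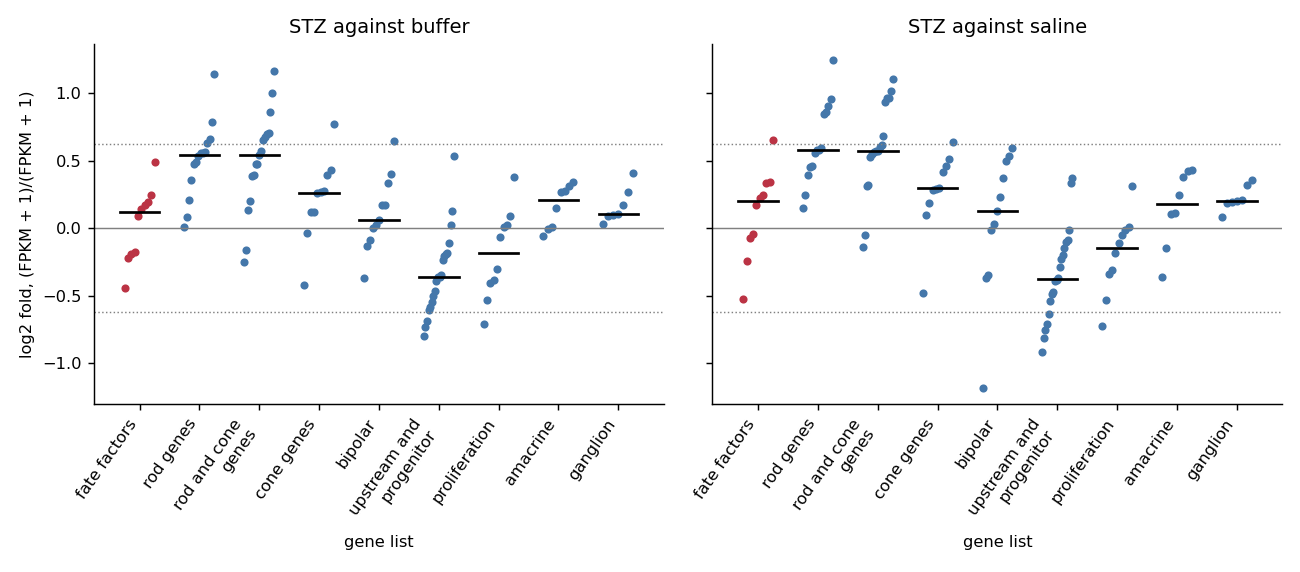
Log2 fold of STZ against buffer (left) and saline (right) for the 10 fate factors (red) and for 8 gene lists (blue), 1 point per gene with a mean of at least 10 reads, with black bars at list medians and dotted lines at the 2 thresholds. Rod genes and genes shared by rods and cones have medians between 0.54 and 0.58, and upstream and progenitor regulators lie at -0.36 and -0.38.

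Most listed regulators that act before the fate factors were lower in the STZ library, as were 4 of the 10 fate factors. Of 20 upstream and progenitor genes, 17 had folds under 1 against buffer and 18 against saline, where 43.2% and 47.3% of the 14885 genes did. The lower threshold was passed by 3 against buffer and 5 against saline, beside 1.15% and 1.95% of those genes, and the upper by 0. Their log2 medians were -0.36 relative to buffer and -0.38 relative to saline. Those that passed against both controls, 3 in all beside 0.726% of those genes, included Dll1, a Notch ligand, and Lhx2, a progenitor homeodomain factor. Lhx2 had 2416 reads in buffer, 2567 in saline and 1446 with STZ. Dll1 was lowest with folds of 0.573 and 0.529. Ikzf1, an early temporal factor, was highest against buffer at 1.45, on 14, 24 and 42 reads. In the list of 10 proliferation markers, 1 gene passed the lower threshold against both controls, the cyclin Ccnd1, with 30498, 30728 and 18626 reads and folds of 0.611 and 0.605, while Ccnb1 was highest at 1.3 against buffer. That list had log2 medians of -0.18 and -0.15.

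Partners of the fate factors showed no common direction. Over 15 partners and co-regulators the log2 medians were 0.01 relative to buffer and -0.04 relative to saline. Folds over 1 numbered 9 against buffer and 6 against saline. A threshold was passed by 0 in either comparison. Of the 14885 genes with a mean of at least 10 reads, 2.58% passed the upper threshold against buffer and 2.37% against saline. The lower was passed by 1.15% and 1.95%, so in a list this short few or none would pass. Samd7, a Crx-regulated repressor of photoreceptors, was highest with 4392, 4048 and 5899 reads and folds of 1.35 and 1.47. Nr1d1, a clock repressor that cooperates with Nr2e3, was lowest at 0.775 and 0.71, with fractional counts. Among 16 retinoid and thyroid hormone receptors and their regulators, Rarb, a retinoic acid receptor, passed the lower threshold against both controls (403, 557 and 233 reads, folds of 0.634 and 0.477). In that list 4 genes passed the lower threshold against saline but 1 against buffer. Of the 14885 genes with a mean of at least 10 reads, 1.95% and 1.15% did so, and 0.726% against both. The upper was passed by 2 in saline against buffer, beside 1.01% of the 14885 genes. The 2 included Aldh1a1, a retinoic acid-synthesizing enzyme, with 1904 reads in buffer, 6838 in saline and 1904 in STZ. Log2 medians of the list were -0.08 and -0.22. Against each control 15 of the 16 had folds under 1 and 0 had folds over 1. Among the 14885 genes 43.2% were under 1 against buffer and 47.3% against saline. Cyp26a1, which degrades retinoic acid, was highest against buffer at 1.0. Thra, the other thyroid hormone receptor gene, had 6034, 6110 and 5997 reads after rounding, and its ratio to buffer was 0.992 (0.957 to 1.03).

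Close relatives of the fate factors had folds on both sides of 1. Of 15 paralogs, 13 had a mean of at least 10 reads. The lower threshold was passed against both controls by 1 of them, beside 0.726% of the 14885 genes with that mean. Nr2e1, the progenitor relative of Nr2e3, passed the lower threshold against both controls with 1758 reads in buffer, 1841 in saline and 1090 in STZ and folds of 0.604 and 0.584, opposite to Nr2e3. Neurod4 was lower at 0.793 and 0.803, short of the threshold, with 15268, 15043 and 12113 reads. Mef2c was highest at 1.25 against buffer. The paralogs had log2 medians of 0.01 and 0.11.

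Markers of microglia and the crystallins of the lens were also higher in the STZ library. All 8 microglia markers were detected, with 1048, 1216 and 2505 reads summed in buffer, saline and STZ, and Aif1, Csf1r, Cx3cr1, C1qa, Tmem119 and Cd68 passed the upper threshold against both controls, from 1.62 (Tmem119) to 3.1 (Cd68) relative to buffer. P2ry12 was lowest at 1.27. The upper threshold was passed against both controls by 1.63% of the 14885 genes with a mean of at least 10 reads. The 10 lens markers summed to 295, 609 and 2644 reads, and the crystallins Cryaa, Cryba1, Crygc and Crygd passed against both controls, led by Cryba1 with 22, 62 and 731 reads. Mip, a defining lens fiber gene, had 73, 73 and 86 reads after rounding, and Birc7 was lowest at 1.07. Of the 8 lens markers with a mean of at least 10 reads, only the 4 named crystallins passed a threshold against either control. All 8 had folds over 1 against buffer and 7 did against saline. The exception against saline was Bfsp1 at 0.875, with 50, 105 and 90 reads. No marker of either list was at 0 in any library. The 5 blood markers, 4 of them in the table, summed to 453, 586 and 337 reads, of which Hbb, with fractional counts, had a fold of 0.751 relative to buffer. Amacrine cell markers had log2 medians of 0.21 and 0.18 over 8 genes, and ganglion cell markers of 0.10 and 0.20 over 7 of 8 genes. In both lists 0 passed a threshold. Of the 14885 genes with a mean of at least 10 reads, 2.58% passed the upper threshold against buffer and 2.37% against saline. The lower was passed by 1.15% and 1.95%, so in lists this short few or none would pass. Gad1, a GABA-synthesizing enzyme, was highest among amacrine markers at 1.27 against buffer and Chat lowest at 0.961, and among ganglion markers Pou4f1 was highest at 1.33 and Nefm lowest at 1.02. Neurod1 is known in amacrine cells as well as in photoreceptors, and it was lower in STZ. The part of these cell types in the values of the fate factors was not tested.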

How the data were processed

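Retinal RNA was sequenced in 3 libraries, 1 per injection. The authors trimmed the reads, mapped them with TopHat2 (build rn6 in the submitters' processing notes) and discarded reads with several locations. They calculated FPKM with an R script, and how they made TPM and counts is not given in the sources used here. The deposited FPKM, TPM and estimated counts are per gene. The authors' estimated counts, made from the mapped reads, are fractional for 12.9% to 13.2% of values and were rounded for intervals. Fractional members were Otx2 and Rxrg. Folds, (FPKM + 1)/(FPKM + 1), and the thresholds (log2 of 0.62 and -0.62) follow the study's methods. With 1 library per group no test was made, and the fold and interval calculations were tested on simulated data. The simulated counts held counting error alone and larger changes than those of the members. They check the calculation and not variation between retinas.

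Members, lists and rules were chosen with earlier results of these data known. The 15 lists were written by hand, and the text names members, list genes past a threshold against both controls, and the highest and lowest fold against buffer. Opn1sw, Opn1mw, Thra, Neurod4, Pmel, Rpe65, Mip, Trpm1 and Aldh1a1 were named after their values were seen. So were Tyr, Tyrp1, Mitf, Rgr, Rdh5 and Bfsp1. Some list genes that the rule names are not reported here. Symbols matched RefSeq by gene identifier.

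Alternatives were a pseudocount of 0.1, TPM, CPM, TMM (edgeR 4.0.16) and median-of-ratios scaling (DESeq2 1.42.0), thresholds of 2 and 0.5, a 10-read minimum, the mean of both controls, counting intervals, and, added after the data were seen, members with whole-number counts. Python 3.11.15, numpy 2.4.6, pandas 2.3.3, scipy 1.17.1, matplotlib 3.10.9 and R 4.3.3 were used.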

Additional observations from a re-analysis of the deposited data

How the results depend on the processing

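Calling the 10 genes by a 95% counting interval that excludes 1, in place of the fold thresholds, gave 10 genes in STZ against buffer (6 higher, 4 lower), 10 relative to saline, and 6 between the controls. With thresholds of 2 and 0.5 the count against saline was 0, since Nr2e3 no longer passed. With the mean of both controls as control, the median log2 fold of the members was 0.165. The other alternatives left the counts of members past a threshold at 0, 1 and 0, and kept the sign of each median. Of the folds of single members under alternatives, 59 of 70 moved little in STZ to buffer. In STZ to saline and in saline to buffer it was 59 of 60 each. Little here means less than the mean reach of the counting interval to either side, on the log2 scale. The 10-read minimum is included in these counts, and it could not move a fold because every member meets it. No fold with STZ crossed 1. Mef2d in saline against buffer crossed 1 with CPM (1.01). TMM factors brought Crx against buffer to 1.04, and CPM brought Rorb to 0.77 against buffer and 0.75 against saline. No paired analysis was possible because each group is 1 library, whether or not the buffer and STZ retinas came from the same pups, and no replicate could be left out. Depth limits Rxrg and Thrb most, whose intervals against buffer start at 1.02 and 1.01.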

Other observations

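The transcript length implied by a gene's count, FPKM and library total should not vary between libraries if the mix of transcripts is fixed. For Rorb it was 6.63 kb in buffer, 6.42 kb in saline and 6.95 kb in STZ, which is 4.85% longer in STZ than in buffer. For Otx2 and Mef2d it was 1.31% and 0.998% longer in STZ than in buffer, for Thrb it was lower by 0.248%, and for the other 6 genes the change was under 0.1%. This is why the FPKM fold of Rorb (0.735 against buffer) and its count ratio (0.77) differ, and what lies behind the change in implied length was not tested.

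No member passed a threshold in the same direction against both controls, so no gene is named for likeness of pattern. Among 11792 other genes with a mean of at least 100 reads, the number within 0.1 of a member over both log2 FPKM ratios, STZ to buffer and STZ to saline, was 54 for Nr2e3 and 128 for Rorb. It was 607 for Nrl and 1324 for Mef2d. Nr2e3 and Rorb thus had the fewest neighbours of the 10 genes. Their folds were the largest and most genes lay near no change, so this count restates fold size. For each of the other 8, at least 494 genes lay within that distance.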
